A study of Ovis aries with 36 samples.

Results

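Longissimus lumborum (LL), the lumbar part of the long back muscle, was compared with semimembranosus (SM), a muscle of the inner thigh. The comparison took the 8 samples whose titles name these muscles, LL of animals 1 to 4 and SM of the same animals 1 to 4, out of 36 samples in the series. The animals were 4 unrelated lambs from Poll Dorset crosses, aged 14 months and weighing 67 to 72 kg at slaughter. All had been fed a soy crop with sorghum grain, and the labels name no treatment that separates the groups. The libraries were sequenced over several lanes, and which library went on which lane is not given in the sources used here, so a lane effect was not tested. Total RNA from the superficial middle of each muscle belly was sequenced as 100-base read pairs. The other 7 muscles were psoas major (PM), semitendinosus (ST), adductor (AD), rectus femoris (RF), gluteobiceps (GB), gluteus medius (GM) and, from the shoulder, supraspinatus (SS). The replicates were separate animals, and each animal gave both muscles.

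Skeletal muscle is a mixture of slow fibres, which contract slowly and burn fat and sugar with oxygen, and fast fibres, which draw more on glycolysis. Each fibre type builds its sarcomere, the contractile unit, from its own forms of myosin, troponin and tropomyosin, so transcripts of these forms follow the fibre make-up of a muscle. A second group of genes, the HOX genes and other patterning factors, is laid down in the embryo along the body axis and can remain expressed in adult muscles according to where they lie. In whole muscle, fewer cells of a type and less RNA per cell cannot be told apart.

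Levels are in CPM, the counts of a locus scaled to a common library size that was adjusted by the TMM method. They were not divided by transcript length, so levels are compared between samples of 1 locus and never between loci. The 4 LL samples held 5317026 to 6378073 counts and the 4 SM samples 4407709 to 6360548. In all 36 samples most counts lay on 4 short unannotated loci, which took 67.7 to 70.3% of LL counts and 70.6 to 78.3% of SM counts. The SM libraries of animals 1 and 3 had the largest such shares of all 36, 77.1 and 78.3%, and held 1009232 and 1193552 counts on all other loci, where the LL libraries held 1716590 to 1920159. A level of 3 counts, taken as the floor below which a locus is not told from 0, came to 0.478 to 0.538 CPM in LL and 0.426 to 1.03 CPM in SM, and this covers counting error only.

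Of 12461 loci tested, 126 were differentially expressed (DEG) at a false discovery rate (FDR) of at most 0.01 and an absolute log2 fold change (log2FC, LL minus SM) above 1 in edgeR's quasi-likelihood test, which is 1.01% of the loci tested. The test was fitted to all 36 samples, so the spread was estimated over all 9 muscles. Fitted to the 8 samples of LL and SM alone, it called 1 of 9060 loci, higher in LL. SM was the higher muscle at 82 of the 126 DEG (0.658% of the loci tested) and LL at 44 (0.353%). The median log2FC was -1.27 among the 82, and the lowest was -2.91. The median was 1.45 among the 44, and they ran from 1.02 to 7.60. Differences above 4-fold were few, with 7 loci higher in LL and 5 higher in SM beyond a log2FC of 2. The SM sample exceeded the LL sample of the same animal in all 4 animals at 81 of the 82 loci, against 10.5% of all loci, and the reverse held at 40 of the 44, against 11.7% of all loci. All 4 SM samples lay above all 4 LL samples at 69 of the 82, against 3.88% of all loci, and all 4 LL samples lay above all 4 SM samples at 28 of the 44, against 2.89% of all loci. These last counts come from the values that made the calls and are a description of them. The number of calls depended on which animals were in the fit. Without animal 1, 44 DEG were called, 9 higher in LL. Without animal 2 there were 169, without animal 3 there were 58 and without animal 4 there were 51. A fit with fewer animals has less power. Where the 126 loci were tested in these 4 fits, none changed sign.

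The directions differed by annotation. A locus is called unannotated here where the deposited tables give it no Ensembl gene, as for transcripts that only the authors' own assembly found. Such loci were 25.4% of those tested (3168 of 12461). They made up 31 of the 44 DEG higher in LL, 70.5%, but 4 of the 82 higher in SM, 4.88%. Of all unannotated loci tested, 0.979% were called higher in LL and 0.126% higher in SM. Among loci with an Ensembl gene, 78 were higher in SM, 0.839% of those tested, and 13 in LL, 0.140%. The tilt went beyond the called loci. The median log2FC was 0.42 over the 3168 unannotated loci, of which 76.5% had a value above 0, and -0.07 over the 9293 annotated loci, of which 42.5% did. Over all loci it was 0.01.

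This tilt varied between the animals. The median LL minus SM difference of unannotated loci in log2 CPM was 0.85 in animal 1, -0.04 in animal 2, 0.43 in animal 3 and 0.38 in animal 4. For annotated loci it stayed between -0.13 and -0.01. It was present at every level, with a median log2FC of 0.38 for unannotated loci under 2 CPM and of 0.62 for those over 20 CPM, where annotated loci had -0.12 and 0.06. Set against the mean of all 36 samples, unannotated loci relative to annotated ones stood at -0.74 in SM of animal 1, 0.19 in SM of animal 2, -0.58 in SM of animal 3 and -0.28 in SM of animal 4. The LL samples stood at 0.23, 0.15, -0.06 and 0.18, inside the range of -0.53 to 0.36 of the 28 samples of other muscles. It was therefore the SM of animals 1 and 3 that lay outside, and these are the 2 libraries with the largest share of counts on the 4 short loci. ST of animals 1 and 4 came next in both orders, at -0.53 and -0.33 with shares of 75.1 and 74.2%. SM of animal 4, at -0.28, had a share of 73%. RF of animal 1, with the 6th lowest value at -0.22, had 69.6%, and SS of animal 1, at -0.16, had 67.2%. The part of this share in the result was not tested. The share of counts on unannotated loci, with the 4 short ones set aside, did not show the same split, at 10.6, 13.4, 10.8 and 11.8% in LL and 10.3, 13.1, 11.8 and 12% in SM. When the SM libraries of animals 1 and 3 were left out, 66 loci were higher in SM and 8 in LL, of which 2 were unannotated. When library sizes were set on annotated loci alone, the median log2FC of all loci moved to 0.11 and the split turned to 69 higher in LL and 43 higher in SM.

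**Figure D1:**
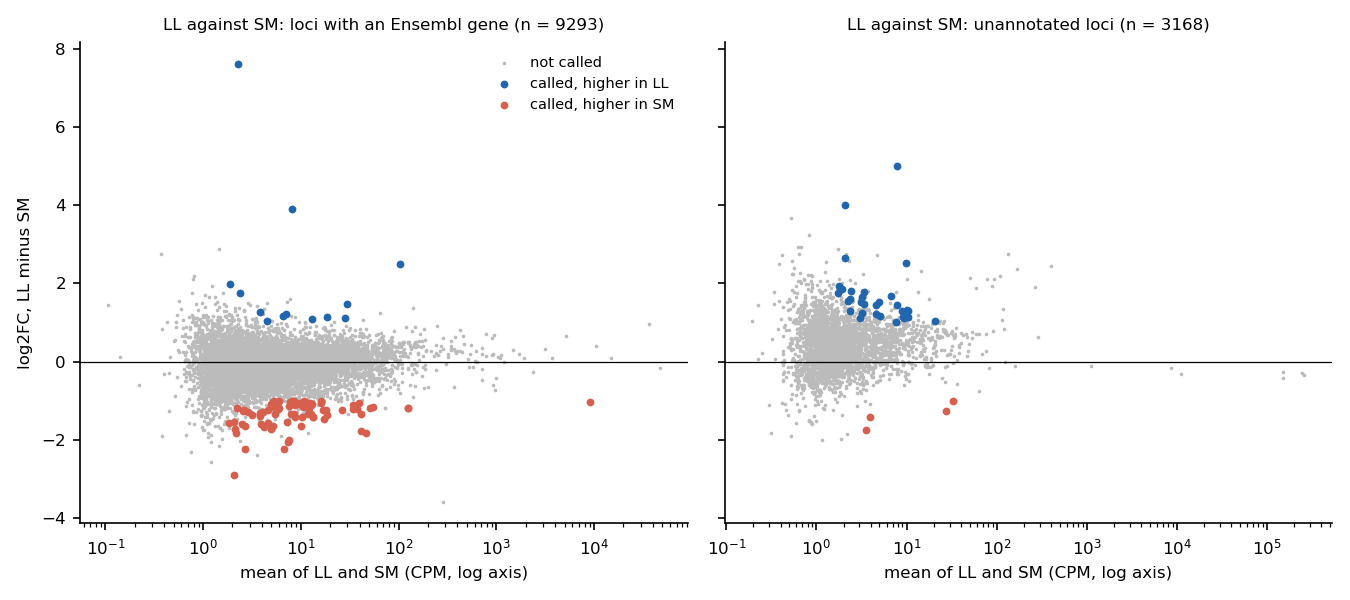
Log2FC of LL minus SM (vertical axis) against the mean CPM of LL and SM (horizontal log axis) for 9293 loci with an Ensembl gene (left) and 3168 unannotated loci (right), with called loci in blue (higher in LL) or red (higher in SM). Calls on the left lie mostly below 0 (78 of 91), calls on the right mostly above 0 (31 of 35), and the whole cloud on the right is shifted upward.

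**Figure D2:**
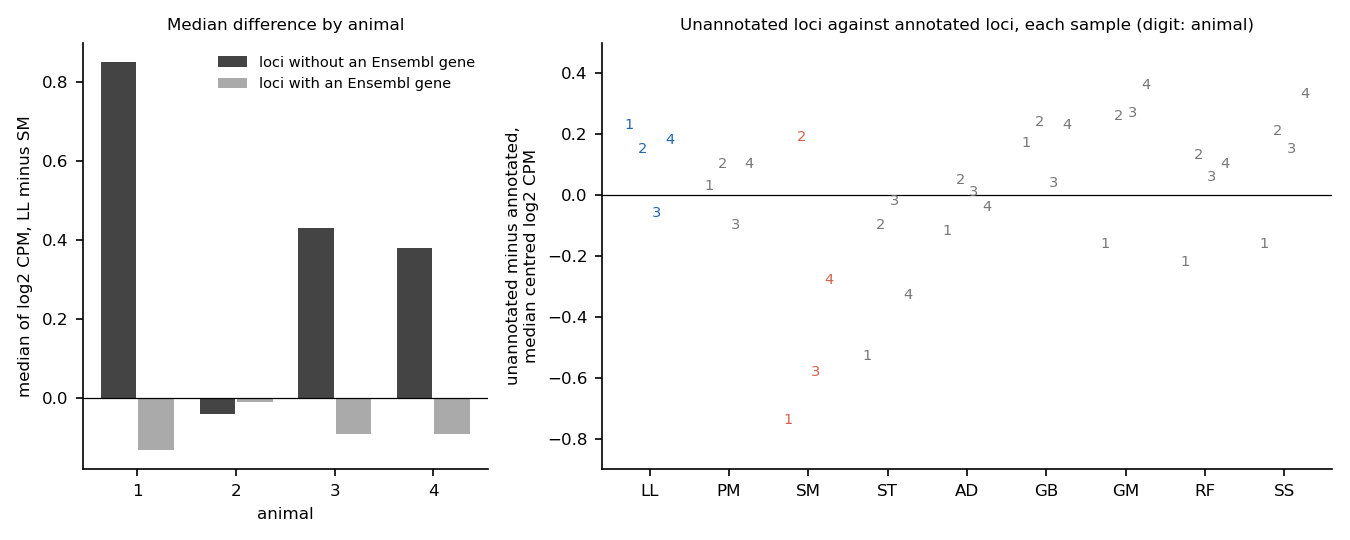
Left, median LL minus SM difference in log2 CPM in each of the 4 animals for unannotated loci (dark bars) and loci with an Ensembl gene (light bars). Right, unannotated relative to annotated loci in each of 36 samples as median log2 CPM centred on all samples, each digit being an animal. SM of animals 1 and 3 are the lowest of the 36 at -0.74 and -0.58.

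The files carry Ensembl identifiers and no symbols, so a gene is named only where the study's tables place it at a tested locus. This named 30 genes, and 1 of them, SIM2, was a DEG between LL and SM, where 1.01% of all loci tested were. Those 30 genes were picked in the study for other contrasts on these same animals, so they are no independent sample, and their median log2FC was 0.01, equal to that of all loci. The myosin heavy chain genes MYH7, MYH2 and MYH1 and the fast calcium pump ATP2A1 could not be paired with a locus and were not analysed here. Of the lists of adipocyte, fibroblast, endothelial, blood, Schwann cell and neuromuscular junction markers no member could be paired, and the same holds for mitochondrial oxidation and for early response genes. Whether other cell types differed between the samples was therefore not measured. No defining marker of LL or of SM was among the named genes, so these 2 labels were not checked through one.

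Genes of the slow sarcomere and its calcium handling mostly had larger values in SM than in LL, but none of the 9 that could be named passed the thresholds. Their median log2FC was -0.44, with 7 values below 0, and the FDR ran from 0.0156 to 0.983. Both muscles were low in these transcripts among the 9 muscles. LL ranked 7th or 8th by mean CPM in 8 of the 9 genes, and SM ranked 6th to 8th in 8 of the 9. Loci at the positions of MYH7B and MYBPC1, also on the list but outside these 9, did not lean to SM. The first and second loci at the MYH7B position had log2FC of 0.27 and 0.03 (quasi-likelihood FDR 0.779 and 0.950). The annotated locus at the MYBPC1 position had 0.27 (quasi-likelihood FDR 0.423).

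MYOZ2, a Z-disc protein of slow fibres that binds calcineurin, came closest to a call. Its levels were 14.2, 8.77, 17.2 and 4.30 CPM in LL of animals 1 to 4 and 17.4, 11.7, 41.2 and 22.2 CPM in SM. SM was higher in each animal while the groups overlapped. The mean within-animal difference was -1.05 in log2 CPM (SE 0.46, n = 4), and the fitted log2FC was -1.02 with an FDR of 0.0156 in the quasi-likelihood test. The locus lies on chromosome 6, 6264895-6303407 of Oar_v3.1.

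The troponin genes showed how far one animal went its own way. TNNT1, the slow troponin T that anchors the complex to tropomyosin, stood at 68.4, 119, 81.5 and 27.4 CPM in LL and at 114, 44.5, 152 and 104 CPM in SM. SM was higher in animals 1, 3 and 4, and LL was higher in animal 2. The fitted log2FC was -0.44 (quasi-likelihood FDR 0.424). TNNC1, the calcium-binding troponin of slow and cardiac muscle, had 52.9, 141, 89.6 and 34.6 CPM in LL against 138, 61.1, 171 and 101 CPM in SM. It followed the same pattern over the animals, with a log2FC of -0.59 (quasi-likelihood FDR 0.260). TNNI1, the slow inhibitory troponin, had 10.4, 33.5, 16.3 and 6.54 CPM in LL against 17.1, 7.67, 31.3 and 17 CPM in SM. The opposite sign of animal 2 left its log2FC at -0.02, a value that changed sign with the scaling, from -0.02 to 0.08 when library sizes were set on annotated loci.

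The light chain MYL3 and the tropomyosin TPM3 repeated this order at their own levels. MYL3, the essential light chain of slow and ventricular myosin, stood at 21.0, 21.6, 34.1 and 18.3 CPM in LL and at 50.2, 18.0, 56.8 and 36.7 CPM in SM (log2FC -0.72, quasi-likelihood FDR 0.156). TPM3, the slow tropomyosin, ran from 25.8 to 49.6 CPM in LL and from 31.4 to 96.6 CPM in SM (log2FC -0.51, quasi-likelihood FDR 0.232). In both genes animal 2 alone had the higher value in LL. MYOM3, an M-band protein, also went with them, at 4.85, 13.1, 8.24 and 2.55 CPM in LL and 15.4, 2.98, 12.8 and 6.35 CPM in SM, and its log2FC was -0.21.

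Calcium handling genes did not show the tilt to SM. ATP2A2, the calcium pump of slow and cardiac muscle, stood at 103, 201, 113 and 67.1 CPM in LL and at 100, 81.6, 154 and 107 CPM in SM (log2FC 0.14, quasi-likelihood FDR 0.806). CASQ2, the cardiac and slow calsequestrin that stores calcium, ran from 4.63 to 6.82 CPM in LL and from 3.13 to 6.98 CPM in SM (log2FC 0.19, quasi-likelihood FDR 0.761). Each was higher in LL in 2 of 4 animals. Taking the 9 genes by animal, 8 were higher in LL in animal 2, whereas 7 in animal 1, 9 in animal 3 and 9 in animal 4 were higher in SM. Without animal 2, 8 of the 9 had a log2FC below 0 and 3 had a quasi-likelihood FDR of at most 0.05, TNNC1 (log2FC -1.24), MYOZ2 (-1.19) and TNNT1 (-1.04), with none past the FDR of 0.01. Without animal 2, 5.83% of all loci had an FDR of at most 0.05. Without SM of animals 1 and 3, SM came from animals 2 and 4 only, so animal 2 weighed more. The weight of animal 2 and the 2 libraries left out cannot be told apart in that fit. In it the log2FC was 0.53 for TNNI1, 0.36 for ATP2A2 and 0.18 for CASQ2. TNNT1 and MYOM3 were then above 0 too. MYL3 had -0.22, and MYOZ2, TNNC1 and TPM3 also stayed below 0. Leaving out animal 2, or SM of animals 1 and 3, was considered with these values in view.

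Positions given for 2 myosin light chains each held a DEG. The coordinates given for MYL2, the regulatory light chain of slow and ventricular myosin, fall in 2 loci that share the span 54257918-54303146 of chromosome 17, and the name cannot be assigned to either. The second of these stood at 7.36, 7.87, 9.10 and 3.51 CPM in LL and at 19.1, 8.24, 34.8 and 17.1 CPM in SM. SM was higher in all 4 animals with overlapping groups, and the locus was a DEG (log2FC -1.43, quasi-likelihood FDR 0.00419). The call was lost in 7 of 17 alternatives, with a quasi-likelihood FDR of 0.0280, 0.0727 and 0.0186 without animal 1, 3 or 4, and the log2FC was -0.84 (quasi-likelihood FDR 0.184) without SM of animals 1 and 3. The first of them, at 15.8 to 51.5 CPM in LL and 26.0 to 89.9 CPM in SM, was not (log2FC -0.98, quasi-likelihood FDR 0.0818). It passed without animal 2 (-1.67, quasi-likelihood FDR 0.00326), had -0.71, -0.61 and -0.92 without animal 1, 3 or 4 (quasi-likelihood FDR 0.373, 0.501 and 0.138), and had -0.13 without SM of animals 1 and 3. The position of MYL6, a light chain of non-muscle and smooth muscle myosin, also holds 2 loci, on chromosome 3 at 163076924-163101778. The second was a DEG at 4.67, 12.2, 5.83 and 3.67 CPM in LL and 16.4, 7.82, 42.0 and 13 CPM in SM (log2FC -1.43, quasi-likelihood FDR 0.00902), but animal 2 was again higher in LL. Without animal 3, whose SM held the highest value, its log2FC was -0.89 (quasi-likelihood FDR 0.185), and the call was lost in 10 of 17 alternatives. The first stood at a log2FC of 0.02.

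**Figure D3:**
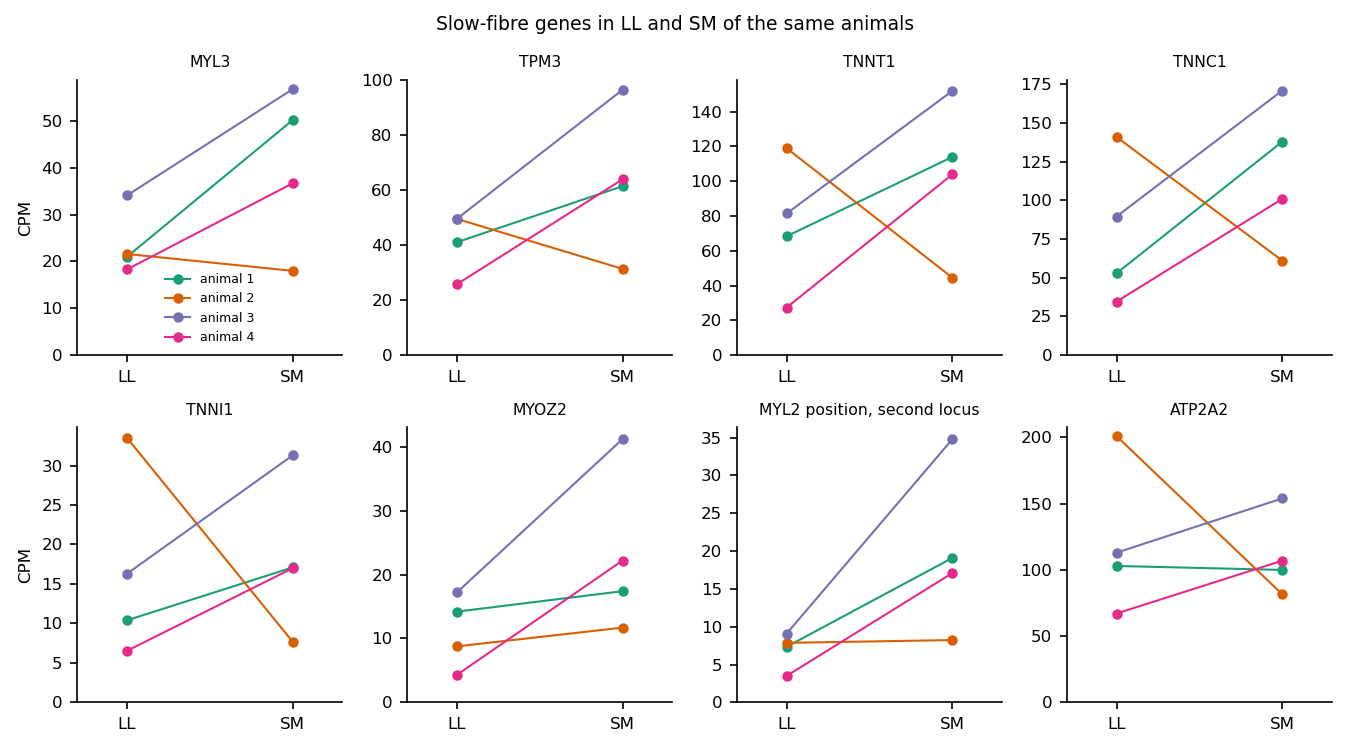
CPM (vertical axes from 0) of 8 slow-fibre genes or positions in LL and SM, with a line joining the 2 muscles of each animal. Lines of animals 1, 3 and 4 rise from LL to SM in most panels, and the line of animal 2 falls in TNNT1, TNNC1, TNNI1, MYL3, TPM3 and ATP2A2.

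Genes for fast fibres and for fuel use were mostly out of reach. PVALB, a calcium buffer of fast fibres, was at or under the floor of 3 counts in all 8 samples. At the position of FABP3, a fatty acid carrier of oxidative muscle (chromosome 2, 235135327-235198261), the first of 2 loci had 17, 3.04, 6.86 and 6.54 CPM in LL and 15.7, 5.12, 23.0 and 19 CPM in SM. SM was higher in animals 2, 3 and 4 (log2FC -0.88, quasi-likelihood FDR 0.0737), and the value depended on the animals. Without animal 1 the locus passed the thresholds (-1.40, quasi-likelihood FDR 0.00974), while without animal 2, 3 or 4 it had -0.94, -0.59 and -0.66 (quasi-likelihood FDR 0.0878, 0.422 and 0.312). The second locus was higher in SM in 4 of 4 animals but was not a DEG (log2FC -0.76, quasi-likelihood FDR 0.180). The name FABP3 cannot be assigned to either locus. PPP1R3D, which directs a phosphatase to glycogen, had 5.15 to 8.77 CPM in LL and 5.26 to 9.91 CPM in SM (log2FC 0.05), and the 2 loci at the position of SLC16A3, a lactate exporter, had log2FC of 0.13 and 0.17.

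Of the listed genes of body position and muscle patterning, 4 could be named, 2 of 39 HOX genes and 2 of 46 other factors. The study names these 4 for contrasts with SS, so they do not stand for such genes in general. Among the 4, 1 passed the thresholds, where 1.01% of all loci tested did. This was SIM2, a transcription factor of the bHLH-PAS family that was higher in SM. It had 1.62, 0.537, 1.20 and 0.478 CPM in LL and 4.44, 1.71, 3.75 and 3.49 CPM in SM, which corresponds to 3 to 9 counts per LL sample and 12 to 22 per SM sample. Every SM sample lay above every LL sample. The mean within-animal difference was -1.53 in log2 CPM (SE 0.23, n = 4), and the fitted log2FC was -1.83 with a quasi-likelihood FDR of 0.00137 (chromosome 1, 267018135-267070595). Leaving out animal 1, 3 or 4 kept the log2FC between -1.98 and -1.49 with an FDR of 0.0159 to 0.0324, short of the threshold. Among the 9 muscles AD had the highest mean at 4.03 CPM and SM came next at 3.35 CPM. GM and GB followed at 1.98 and 1.77 CPM, LL ranked 5th at 0.958 CPM, and ST was lowest at 0.0539 CPM. EYA1, a transcription cofactor of muscle development, was near the floor in both muscles, at 0.179 to 0.537 CPM in LL and 0.00 to 1.11 CPM in SM.

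HOXD8, a homeobox gene of the HOXD cluster, was higher in LL in every animal. It stood at 11.8, 10.7, 19.6 and 14.2 CPM in LL and at 8.55, 4.97, 13.1 and 9.05 CPM in SM, with overlapping groups. The mean within-animal difference was 0.68 in log2 CPM (SE 0.13, n = 4). Its fitted log2FC of 0.71 lay under the fold threshold, with a quasi-likelihood FDR of 0.0649. LL had the highest mean of all 9 muscles, 14.1 CPM, and SM the third highest, 8.92 CPM, while RF and SS held 0.230 to 3.01 CPM (chromosome 2, 132873609-132877353). The next locus on that chromosome, at 132882816-132884329, had 1.62, 3.04, 2.06 and 2.71 CPM in LL and 0.00, 0.853, 1.61 and 1.11 CPM in SM. Its groups were barely apart, at 1.62 CPM in LL of animal 1 and 1.61 CPM in SM of animal 3. All LL samples lay above all SM samples at 2.89% of all loci. This locus had 9 to 17 counts in LL and 0 to 7 in SM, a log2FC of 1.29 and a quasi-likelihood FDR of 0.0839. A locus on the other side, at 132836522-132857578, that joins 2 Ensembl genes had a log2FC of 0.20. HOXC10, a homeobox gene of the HOXC cluster, leaned the other way, with 1.59 to 3.23 CPM in LL and 2.84 to 4.44 CPM in SM. SM was higher in 4 of 4 animals, but the log2FC was -0.45 (quasi-likelihood FDR 0.396). HOXC10 had 0 counts in all 4 samples of SS, the only muscle of the 9 from the forelimb, and at least 8 counts in each of the other 32 samples, so it sets SS apart and does not tell LL from SM.

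The 2 loci with the clearest excess in LL have no symbol in the files and were chosen by their p-values. ENSOARG00000011146 on chromosome 2, 248314984-248351464, had the smallest p of all. It stood at 14.5, 25.2, 14.2 and 6.85 CPM in LL and at 1.37, 1.56, 0.268 and 0.635 CPM in SM. Every LL sample lay above every SM sample, with a log2FC of 3.90 and a quasi-likelihood FDR of 1.1e-06. No other muscle had a mean above 1.96 CPM, and the highest of the 32 samples outside LL was PM of animal 3 at 4.56 CPM. The locus passed both thresholds in each of the 16 alternatives in which it was tested.

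ENSOARG00000011739 on chromosome 8, 36569062-36646572, was found in LL and not in SM. It had 21, 20, 44 and 20 counts in LL of animals 1 to 4, or 3.77, 3.58, 7.55 and 3.19 CPM, and 0 counts in all 4 SM samples (quasi-likelihood FDR 3.5e-06). Set against 3 counts over the SM group, 0.150 CPM, the LL mean of 4.52 CPM was at least 30.1-fold higher. PM, which also lies along the lumbar spine, was the only other muscle with more than 1 count in any sample, at 25, 38, 63 and 47 counts. Of the 28 samples of the remaining muscles 22 had 0 counts. Animal 3 had the highest value in both LL and PM.

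**Figure D4:**
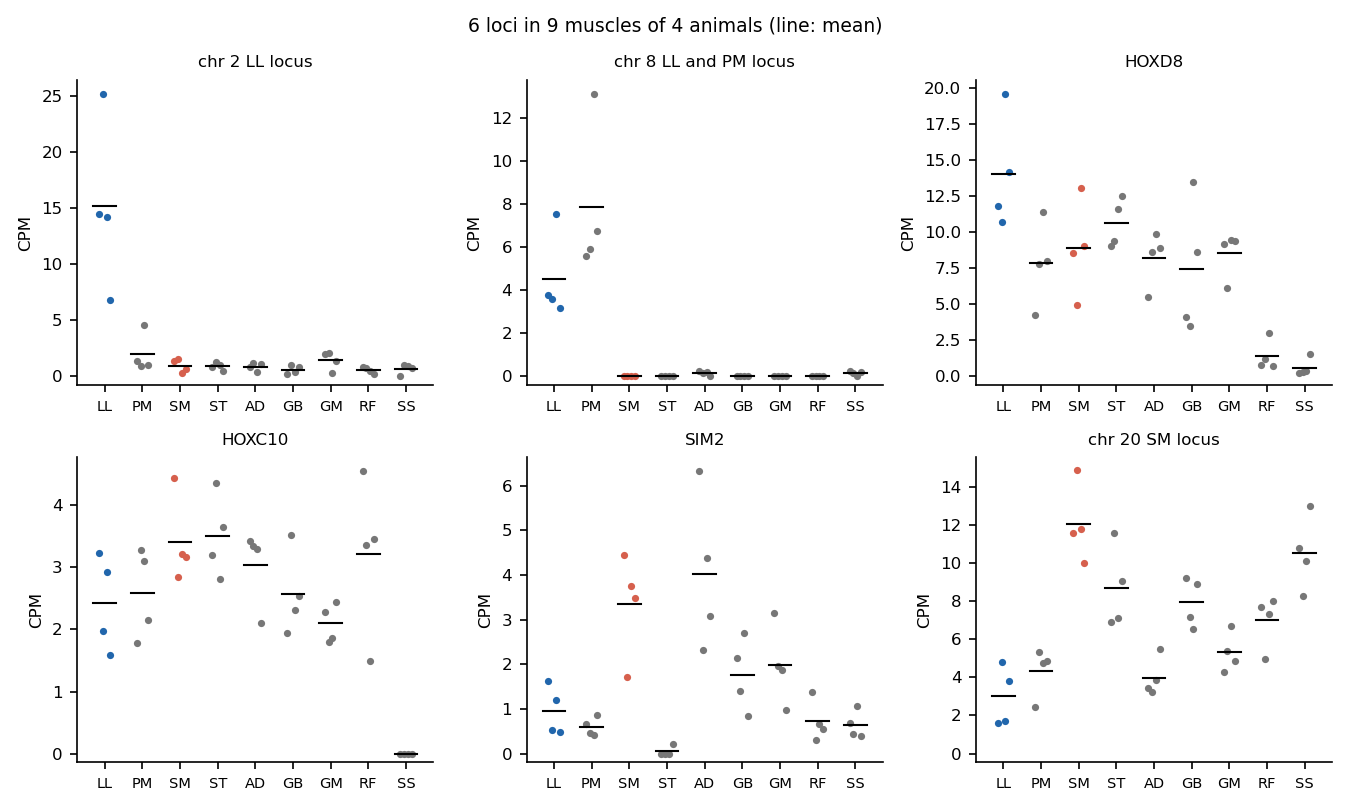
CPM of 6 loci in the 4 animals (points) of 9 muscles, with LL in blue, SM in red, other muscles in grey and the mean as a line. The chromosome 2 locus is high in LL only, the chromosome 8 locus in LL and PM, SIM2 in SM and AD, HOXC10 is at 0 in SS, and the chromosome 20 locus is highest in SM and lowest in LL.

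At other loci LL shared its high level with a muscle of the thigh. A locus on chromosome 12 at 77817796-77842494 held 87.4, 343, 173 and 101 CPM in LL and 30.1, 16.1, 41.2 and 35.4 CPM in SM (log2FC 2.50, quasi-likelihood FDR 1.4e-04). The groups did not overlap, and the LL of animal 2 was the highest of the 8. ST was higher still, with a mean of 201 CPM, while the other muscles besides LL and ST had means of 21.1 to 43 CPM.

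Among loci higher in SM, ENSOARG00000008233 on chromosome 2, 28574568-28810479, had the smallest p. It held 20.5, 20.2, 17.7 and 16.7 CPM in LL and 59.1, 97.9, 44.2 and 56.0 CPM in SM (log2FC -1.77, quasi-likelihood FDR 2.5e-06). The LL values were close together and all below the lowest SM value. LL had the lowest mean of the 9 muscles and SM the highest. Another 2 DEG share these coordinates, with log2FC of -2.24 and -1.21, and how reads were assigned among the 3 loci is not known. In the second of them SM of animal 2 stood apart at 21.5 CPM, with 5.89 to 8.25 CPM in SM of the other animals. ENSOARG00000018445 on chromosome 20, 47732530-47873851, had 1.62, 4.83, 1.72 and 3.83 CPM in LL and 11.6, 14.9, 11.8 and 10 CPM in SM (log2FC -2.01, quasi-likelihood FDR 5.6e-06). It too was lowest in LL and highest in SM of the 9 muscles.

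Further loci higher in SM are given by position and were singled out after their values were seen. The unannotated locus with the smallest p in this direction, on chromosome 22 at 50211704-50500834, had 14.9, 17.7, 13.4 and 17.1 CPM in LL and 47.5, 30.6, 38 and 38.4 CPM in SM (log2FC -1.27, quasi-likelihood FDR 5.6e-06). It shares its span with annotated loci, and the study places KNDC1 inside that span. The name KNDC1 was not paired with a locus here. The largest fitted change among the 82 called loci was at a low locus on chromosome 4, 49723506-49732978, with 0.179 to 0.638 CPM in LL, around the floor, and 1.07 to 6.54 CPM in SM (log2FC -2.91, quasi-likelihood FDR 0.00254). A short locus on chromosome 20, 25015205-25015535, had a mean of 5850 CPM in LL and 12200 CPM in SM (log2FC -1.03, quasi-likelihood FDR 0.0092), a call lost in 14 of 17 alternatives with an FDR of up to 0.145. A locus on chromosome 1 at 198618107-198631249 had 8.26, 18.8, 27.5 and 28.7 CPM in LL and 48.9, 94.7, 80.6 and 61.8 CPM in SM (log2FC -1.82, quasi-likelihood FDR 0.00903), a call lost in 10 of 17 alternatives. At 151 CPM the highest of the other 7 muscle means was above that of SM.

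Several DEG were neighbours. Joining DEG of one direction that lie within 100 kb gave 5 runs higher in LL with 14 loci, and 3 runs higher in SM with 7 loci. Loci in a run can be pieces of the same transcript, so they are not separate findings. All 5 runs in LL were of unannotated loci. On chromosome 15, 4 loci with the shared span 24056993-24247780 had log2FC of 1.15 to 1.86. On chromosome 3, 3 loci at 177433178-177476812 had log2FC of 1.25 to 1.44, and the middle one stood at 12.2, 8.23, 20.8 and 6.06 CPM in LL and 3.08, 3.41, 5.62 and 3.81 CPM in SM. SM had the lowest mean of the 9 muscles in all 3.

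The other run on chromosome 3, at 138823794-138842956, followed the animal as much as the muscle. Its first locus had 5.38, 15.9, 14.6 and 4.78 CPM in LL and 0.684, 7.25, 3.75 and 1.27 CPM in SM (log2FC 1.68, quasi-likelihood FDR 0.00115). LL was higher in each animal, while SM of animal 2 lay above LL of animals 1 and 4. The groups therefore overlapped although the within-animal difference was 1.77 in log2 CPM (SE 0.28, n = 4). All 3 loci of the run had their highest mean in LL among the 9 muscles. Without the animal in the model this locus had a quasi-likelihood FDR of 0.263.

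The run on chromosome 6 at 43210256-43217622 rested on 1 library. Its first locus stood at 59.9 CPM in LL of animal 1 and at 0.159 to 0.537 CPM in LL of the other 3 animals, with 1.03, 0.142, 0.00 and 0.00 CPM in SM. Its log2FC of 5 (quasi-likelihood FDR 8.3e-05) therefore describes animal 1. AD and PM of animal 1 also had high values, at 26.3 and 18.4 CPM, and no sample of another animal exceeded 1.10 CPM. Without LL of animal 1 the quasi-likelihood FDR was 0.176, and the second locus of the run had 0.591.

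Other genes that the study names in contrasts with SS or ST were not DEG between LL and SM. TMEM2, a cell-surface hyaluronidase, was higher in LL in all 4 animals, at 30.0, 19.1, 18.7 and 21.7 CPM against 20.5, 16.1, 9.64 and 13.8 CPM, with a log2FC of 0.57 (quasi-likelihood FDR 0.0176). DLG2, a membrane scaffold protein, was higher in SM in all 4, at 0.638 to 1.79 CPM in LL and 1.34 to 4.44 CPM in SM (log2FC -1.27, quasi-likelihood FDR 0.0461). The methyltransferase gene SMYD2 differed by a log2FC of 0.14, at 29.6 to 35.0 CPM in LL and 21.0 to 35.2 CPM in SM. METTL21C, a methyltransferase gene of muscle, stood at 18.8 CPM in LL of animal 1 and at 2.40 to 4.11 CPM in LL of the others, against 2.27 to 5.81 CPM in SM.

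Of the 7 unannotated loci that the study lists, 2 were DEG, both higher in LL, where 0.979% of all unannotated loci were called in that direction. The study chose these loci on the same animals. One, on chromosome 2 at 220339844-220346024, had 10.4, 21.6, 11.5 and 15.3 CPM in LL and 3.76, 7.82, 5.09 and 7.14 CPM in SM. The groups did not overlap, and the within-animal difference of 1.25 in log2 CPM had an SE of only 0.09 (n = 4), with a log2FC of 1.29 (quasi-likelihood FDR 0.00148) that missed the thresholds in 5 of 16 alternatives. SM had the lowest mean of the 9 muscles and LL ranked 4th. The other is the last locus of the run at 138823794-138842956 of chromosome 3 (log2FC 1.51, quasi-likelihood FDR 0.00903). The 3 loci listed for RORA, a nuclear receptor gene on chromosome 7, had log2FC of 0.73, 0.68 and 0.64 with a quasi-likelihood FDR of 0.0263 to 0.0468. SM was lowest of the 9 muscles in all 3. These values lie above the median of unannotated loci, which was itself above 0 at 0.42.

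Set among the 9 muscles, calls higher in SM were mainly loci at which SM was highest, LL lowest or both. SM had the highest mean of the 9 at 69 of the 82, LL the lowest at 53, and both held at 45. Of the 44 loci higher in LL, LL had the highest mean at 25 and SM the lowest at 25, and both held at 9. Since the calls were made on the same LL and SM values, these ranks are a description. The shares of all loci tested with such ranks are not given here, so no excess over them is claimed.

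**Figure D5:**
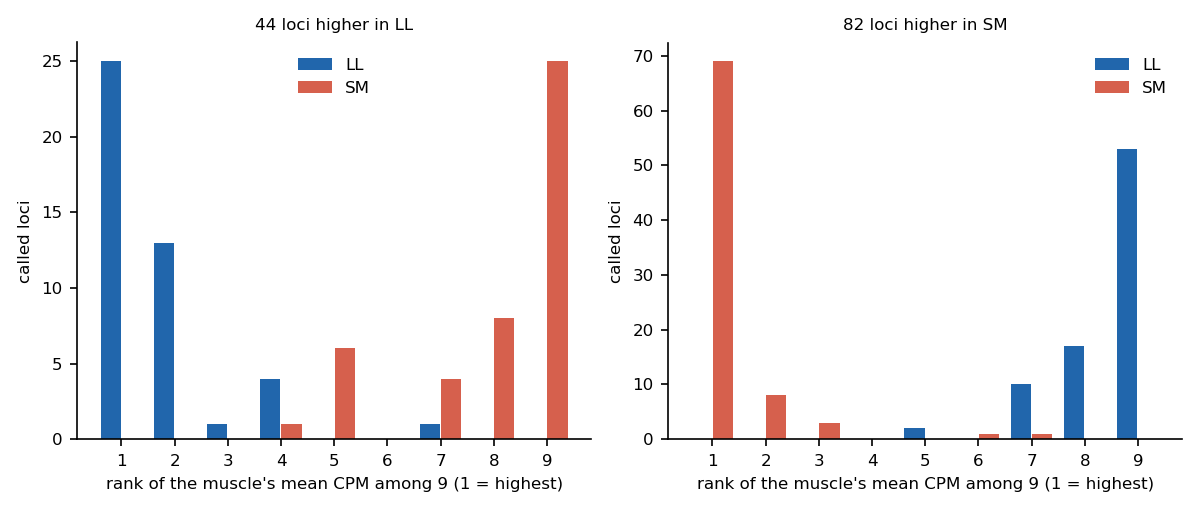
Number of called loci (vertical axis) at each rank of the LL (blue) and SM (red) mean CPM among 9 muscles, 1 being the highest, for 44 loci higher in LL (left) and 82 higher in SM (right). SM is first at 69 of the 82 loci on the right, while on the left LL is first at 25 and SM last at 25 of the 44.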

How the data were processed

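RNA of 36 samples was sequenced on a HiSeq platform. According to the study's methods and the submitters' processing notes, the authors mapped the reads with TopHat2 (v2.0.13) on Oar_v3.1, assembled transcripts with Cufflinks (v2.2.1) beside the Ensembl annotation, and deposited whole-number counts per locus made with HTSeq. The counts are not normalized. Use of strand in counting is not given in the sources used here, so how reads were assigned at loci sharing a span is not known. Of 31530 entries per file, 394 repeats were dropped, leaving 31136 loci. Loci were filtered with filterByExpr by muscle, leaving 12461, and TMM factors ranged from 0.665 to 1.33. With muscle and animal as terms, edgeR (v4.0.16, R v4.3.3) was run on all 36 samples, and LL minus SM was tested by quasi-likelihood with Benjamini-Hochberg adjustment. DESeq2 (v1.42.0) and other settings were alternatives. Within-animal differences used log2 CPM with a prior count of 2. Samples are paired by the animal number in the labels, and the deviations of LL and SM from their group means correlated at 0.144, -0.024, 0.320 and 0.129 in animals 1 to 4. No 2 libraries of a muscle were equal within counting noise (chi-square per degree of freedom 9.60 to 47.6 over 12 pairs). The procedure was tested on simulated data. The comparison and gene lists were chosen with earlier results of these data known. Named are listed genes past the thresholds, slow and fast fibre markers at any p, and the 15 loci of smallest p per direction with the same sign in 4 animals, left out when they have no symbol. Of the last, only those described as singled out, or by p-value, were kept. Symbols come from coordinates in the study's tables. No sequence is shown, since no genome was used here.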

Additional observations from a re-analysis of the deposited data

Results flagged for a closer look

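In 8 of 152 groups of 4 samples, over the 76 loci followed, 1 sample lay apart from the rest by Dixon's criterion for 4 values, where about 1 in 20 groups would do so by chance. At the chromosome 6 run, LL of animal 1 stood at 59.9 CPM at the first locus, with a gap ratio of 0.994, and at 15.8 CPM at the second, with a ratio of 0.989. SM of animal 1 at the first locus had 1.03 CPM and a ratio of 0.861, but this value was 3 counts, at the floor. LL of animal 1 was also apart at METTL21C, with 18.8 CPM and a ratio of 0.896, and at the first chromosome 15 locus, with 22.3 CPM against 11.8 to 12.5 CPM and a ratio of 0.930. LL of animal 2 was low at RIMS2, a synaptic release gene, with 1.43 CPM against 6.69 to 7.54 CPM and a ratio of 0.862. LL of animal 3 was high at the chromosome 8 locus shared with PM, with 7.55 CPM against 3.19 to 3.77 CPM and a ratio of 0.867. SM of animal 2 was high at the second of the 3 chromosome 2 loci at 28574568-28810479, with a ratio of 0.848. The causes were not tested.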

How the results depend on the processing

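Against 126 DEG (44 higher in LL, 82 in SM), the likelihood ratio test called 226 (98 and 128), no filter 380 (247 and 133), an FDR of 0.05 called 363 (183 and 180), and no fold threshold 224, with 165 higher in SM. DESeq2 called 71 higher in LL. At least 10 counts in every LL and SM sample left 58 (19 and 39), of 5753 loci tested. The fit without the animal block gave 31 (6 and 25), all among the 126. The quasi-likelihood fit to the 8 samples alone called 1, higher in LL, and 0 higher in SM, while 659 loci with a higher value in LL and 685 with a higher value in SM had an unadjusted p under 0.05 and the likelihood ratio test on the same 8 samples called 121 in all. Chosen after seeing the data, a test of annotated loci only gave 80 (17 higher in LL), factors from annotated loci gave 69 and 43, leaving out LL of animal 1 gave 49 (15 and 34), and leaving out SM of animals 1 and 3 gave 74, with 8 higher in LL. Leaving out each animal gave 44 to 169 DEG, 9 to 65 higher in LL and 29 to 104 in SM. RLE size factors and leaving out the 4 short loci kept all 3 counts within 1.5 times.

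Of 28 called loci followed, none changed sign and 27 missed the thresholds in at least 1 alternative, the chromosome 2 LL locus being the exception. Of 48 uncalled loci, 15 changed sign somewhere. TNNI1 read 0.00 with RLE factors, 0.02 with no filter, 0.04 with 10 counts, 0.05 on annotated loci, 0.08 with their factors, 0.06 without LL of animal 1, 0.53 without SM of animals 1 and 3 and -0.93 to 0.31 over animals left out. TNNT1 read 0.09 without SM of animals 1 and 3, MYOM3 0.29 and the chromosome 1 transcript of the study 0.02, these last 2 reading 0.06 and 0.03 without LL of animal 1. The first MYH7B locus read -0.05 and -0.13 on 8 samples (quasi-likelihood, likelihood ratio), and the joined locus beside HOXD8 -0.06 without LL of animal 1. With 1 animal, or LL of animal 1, left out in turn, ranges were -0.31 to 0.36 for ATP2A2, -0.11 to 0.46 for CHI3L1, -0.11 to 0.18 for CLIP4, -0.06 to 0.48 for MAST2, -0.60 to 0.68 and -0.14 to 0.16 at MYH7B, -0.19 to 0.12 for the first MYL6 locus, -1.11 to 0.26 for MYOM3, -1.10 to 0.22 for the chromosome 1 transcript, -0.29 to 0.24 for PDLIM1, -0.08 to 0.17 for PPP1R3D, -1.43 to 0.96 for PVALB and -0.04 to 0.33 beside HOXD8. The causes were not tested. Loci near the floor of 3 counts, such as PVALB and EYA1, could not be compared at this depth.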

Other observations

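A short annotated locus on chromosome 11, 9182706-9182869, singled out after its values were seen, was nearly absent in some samples and abundant in others of the same muscle. It had 840, 230, 42 and 5 counts in LL of animals 1 to 4 and 1, 1519, 3852 and 5380 counts in SM. Over all 36 samples, 14 had at most 10 counts, 15 had more than 1000 and 7 lay between, and 6 of the 9 muscles held samples of both kinds. The fitted log2FC between LL and SM was -3.58 with a quasi-likelihood FDR of 0.410.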
